A study of Homo sapiens with 12 samples.

Results

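CD44 and the genes that make and cleave its main ligand, hyaluronan, were examined in pancreatic ductal adenocarcinoma (PDAC) cells. The genes were chosen by symbol and comprised CD44, the hyaluronan synthases HAS1, HAS2 and HAS3, the hyaluronidases HYAL1, HYAL2 and HYAL3, and CEMIP, a hyaluronan-depolymerizing protein. All 8 were found among the 48114 genes of the files, and 7 of them were among the 22544 genes tested in PANC-1. HYAL3 stands in the files as 1 gene joined with its neighbour NAA80, so its values cannot be assigned to HYAL3 alone.

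The study asked how splicing factors separate the basal-like and classical subtypes of PDAC. PANC-1, which the study uses as a basal-like line, received a control siRNA (siCtrl), or 40 nM of siRNAs that silence QKI (siQKI) or RBFOX2 (siRBFOX2), for 48 h. HPAF-II, its classical line, is given by the labels as silenced with siCtrl only. Each of these 4 groups held 3 polyA RNA libraries, and nothing says whether they came from separate cultures, so p-values measure only the spread between libraries. Every group is an established line grown alone, so stromal cells that could make hyaluronan in a tumor were not part of the design. The purity of the cultures was not tested beyond the marker genes given below.

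Hyaluronan is a long unsulfated polysaccharide that synthases in the plasma membrane extrude into the pericellular matrix from UDP-glucuronic acid and UDP-N-acetylglucosamine. It is cleaved outside the cell and at its surface by HYAL2 and CEMIP and in lysosomes by HYAL1, and abundant hyaluronan is a known feature of the PDAC matrix. CD44 is its main receptor on epithelial and mesenchymal cells. CD44 mRNA is also a classic target of alternative splicing, and the gene totals used here sum over all of its isoforms.

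QKI and RBFOX2 are RNA-binding proteins with short, well known recognition motifs. To show where these letters occur, the motifs ACTAAC (QKI) and TGCATG (RBFOX2) were searched on the sense strand of the longest principal transcript of each gene in GENCODE release 29, on GRCh38. Introns, where splicing factors often bind, were not searched, nor were variants of these letters. The enriched QKI motif of the study was wider, with A, T or G before CTAAC. Of 14402 transcripts of tested genes, 25.3% held the QKI motif and 53.1% the RBFOX2 motif. None of the 8 genes held the QKI motif in its transcript. CD44 held 1 RBFOX2 motif, HYAL2 held 1, HAS2 held 2 and CEMIP held 2, while HAS1, HAS3, HYAL1 and HYAL3 held neither motif. CEMIP2, a relative of CEMIP that is described below, held 2 QKI and 4 RBFOX2 motifs. A match is a description of the letters and not a binding site. HAS3 changed in both knockdowns without either motif, and whether a motif goes with a change was not tested. The 4 RBFOX2 windows of CEMIP2 are not printed. The windows below are examples, with the motif in capitals, from CD44 and CEMIP2, which changed in both knockdowns, and HYAL2, which passed the threshold in neither.
CD44, RBFOX2 motif, 3′ UTR, chr11:35230351-35230380, plus strand: tcacattaagttTGCATGacctgttatccc
HYAL2, RBFOX2 motif, coding sequence, chr3:50320186-50320215, minus strand: ccggaaggtctgTGCATGgtggtgtgccac
CEMIP2, QKI motif, 3′ UTR, chr9:71685177-71685206, minus strand: agcacattagagACTAACtgtaacttaagt
CEMIP2, QKI motif, 3′ UTR, chr9:71685138-71685167, minus strand: aaaaaaatgtgaACTAACttatttaattta

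The silenced genes were lower in their own groups. QKI fell to 19.7% of the siCtrl mean in siQKI (log2 fold change −2.34, adjusted p = 9.15e-13), and RBFOX2 fell to 13.6% in siRBFOX2 (log2 fold change −2.89, adjusted p = 4.7e-11). In the siQKI libraries RBFOX2 was also at 81.9% of siCtrl (adjusted p = 0.0207), a call lost under 6 of 17 alternatives. The cytokeratins KRT8, KRT18 and KRT19 of ductal epithelium were high in both lines. All 6 genes of the ductal list, which also held KRT7, EPCAM and CDH1, were at least 2-fold higher in HPAF-II. Their summed rescaled counts were 2550 to 2643 in PANC-1 siCtrl and 10943 to 11850 in HPAF-II. The fibroblast, leukocyte and endothelial lists were near 0 except for CD68, a lysosomal glycoprotein also made outside leukocytes. Summed rescaled counts of the 4 fibroblast genes lay between 0.530 and 2.34 over all 12 libraries, against 266 or more for CD44. In PANC-1 siCtrl 3 of these 4, DCN, LUM and FAP, were at 0, whereas in HPAF-II none of the 4 was at 0 in every library, and these 3 had mean rescaled counts of 0.393, 1.05 and 0.338. Some of these markers moved with the groups. PDGFRB rose in siQKI (log2 fold change 1.42, adjusted p = 9.7e-04) and siRBFOX2 (0.89, adjusted p = 0.0276), and CD68 fell in both (−0.49 and −0.33). Their part in the results was not tested. HPAF-II replicate 1 stood apart for VIM, a mesenchymal marker, with 4248 normalized counts against 81.3 and 85.3 in the other HPAF-II libraries, and the log2 ratios of the 7 genes between the lines are therefore also given without it.

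In PANC-1, silencing of either factor lowered CD44 and HAS3, the most abundant synthase transcript of these cells, while HAS2 and the hyaluronidases did not pass the threshold. In bulk RNA, fewer cells with a transcript and less of it per cell cannot be told apart. Of the 7 tested genes, 2 fell and 0 rose in siQKI. Over all 22544 genes, 18.1% fell and 14.9% rose. Of the called genes 45.2% were thus higher, a share that upper-quartile rescaling moved to 58.02% while CD44 and HAS3 stayed lower. The same counts, 2 fallen and 0 risen, were obtained in siRBFOX2, where 14.5% of all genes fell and 12% rose. Both comparisons share the siCtrl libraries. Values are normalized counts, that is gene counts divided by the size factor of each library, and p-values come from limma with Benjamini-Hochberg adjustment over all tested genes at a threshold of 0.05.

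CD44, at chr11:35138870-35232402 on hg38, had some of the highest counts of all genes in PANC-1. Its normalized counts were 908753, 898711 and 907759 in the siCtrl libraries, 725589, 730335 and 718691 in siQKI, and 557935, 583167 and 538914 in siRBFOX2. All siQKI libraries lay below all siCtrl libraries, and all siRBFOX2 libraries lay below all siQKI libraries. CD44 thus stood at 80.1% of the siCtrl mean in siQKI (log2 fold change −0.32, SE 0.04, adjusted p = 1.06e-05). In siRBFOX2 it stood at 61.9% (log2 fold change −0.69, SE 0.04, adjusted p = 1.07e-08). The direct comparison of siQKI with siRBFOX2 gave a log2 difference of 0.37 (95% CI 0.29 to 0.45, adjusted p = 5.31e-06), so the fall was larger after silencing of RBFOX2. By rank of counts within each library, with no correction for transcript length, CD44 was 23rd in all siCtrl libraries. It ranked between 27 and 31 in siQKI and between 37 and 48 in siRBFOX2.

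HAS3, at chr16:69105564-69118719, showed the larger change. This synthase makes hyaluronan chains at the plasma membrane, as HAS2 does. HAS3 had 5292, 4730 and 5225 normalized counts in siCtrl, 1061, 1195 and 1078 in siQKI, and 2547, 2810 and 2803 in siRBFOX2. The 3 groups did not overlap, with the lowest values in siQKI. The HAS3 mean was 21.9% of siCtrl in siQKI (log2 fold change −2.19, SE 0.08, adjusted p = 6.7e-11) and 53.5% in siRBFOX2 (log2 fold change −0.90, SE 0.08, adjusted p = 1.33e-06). Among the 22544 log2 fold changes of the siQKI comparison, that of HAS3 ranked 178 from the lowest. HAS3 differed between the knockdowns as well (log2 difference −1.29, 95% CI −1.46 to −1.12, adjusted p = 4.72e-08), but with the opposite order from CD44. Thus, between siQKI and siRBFOX2, 1 of the 7 genes was higher and 1 was lower, where 9.93% of all genes were higher and 11.6% lower.

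The last 710 bases of HAS3 overlap the gene that the files call CHTF8 // DERPC. CHTF8 had a log2 fold change of −0.03 (SE 0.04) in siQKI and −0.01 (SE 0.04) in siRBFOX2, and neither passed the threshold. Whether reads were counted by strand is not stated, so reads in the shared stretch cannot be assigned.

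**Figure D1:**
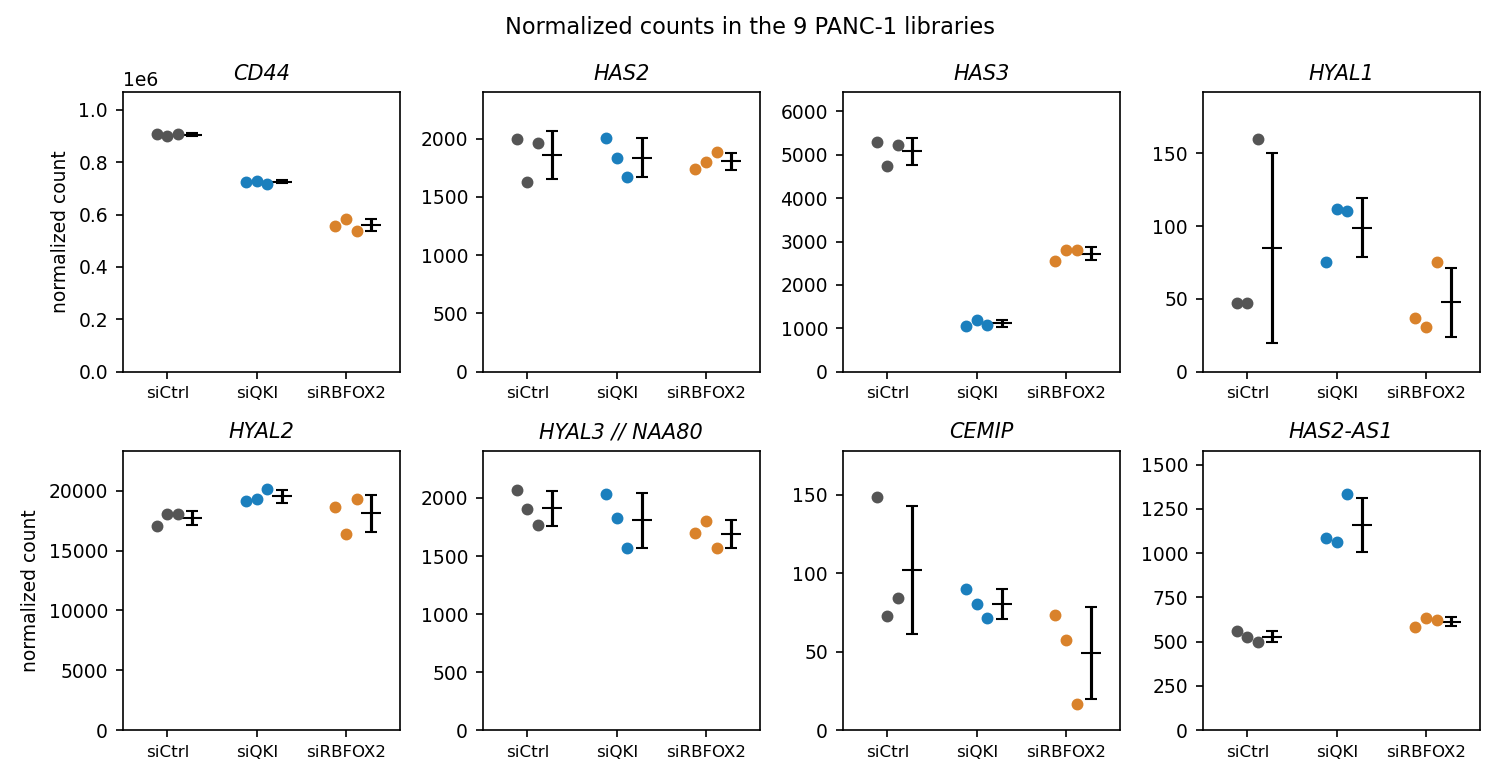
Normalized counts (linear axes from 0) of 7 genes and of HAS2-AS1 in the 9 PANC-1 libraries, with 1 point per library and the mean ± SD (n = 3) beside each group. The CD44 and HAS3 groups do not overlap, with CD44 lowest in siRBFOX2 and HAS3 lowest in siQKI, whereas the HAS2 groups overlap. HAS1 was listed at 0 in all 9 and is not drawn.

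HAS2, the synthase needed for hyaluronan in the embryo, had 1994, 1623 and 1960 normalized counts in siCtrl, 2006, 1835 and 1669 in siQKI, and 1735, 1796 and 1881 in siRBFOX2. The groups overlapped. The log2 difference from siCtrl was −0.02 (95% CI −0.23 to 0.20) in siQKI and −0.04 (95% CI −0.25 to 0.18) in siRBFOX2, so changes of the size seen for HAS3 lay outside both intervals. HAS1, the third synthase, was listed at 0 in every PANC-1 library and was not tested.

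HAS2-AS1, an antisense transcript that overlaps HAS2 by 2095 bases on the opposite strand, rose in siQKI. Its normalized counts were 558, 528 and 500.0 in siCtrl and 1084, 1062 and 1333 in siQKI, with 586, 634 and 621 in siRBFOX2. The siQKI libraries were all higher than the others (log2 fold change 1.13, SE 0.13, adjusted p = 9.7e-06), and the siRBFOX2 difference of 0.22 (SE 0.13, adjusted p = 0.271) did not pass the threshold. Without knowledge of the strand used in counting, reads of HAS2 and of its antisense partner cannot be told apart where they overlap.

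Since HAS3 fell and HAS2 did not pass the threshold, the makeup of the synthase transcripts shifted. Per kilobase of the longest principal transcript, HAS3 made up 73.1% ± 1.03 (SD, n = 3) of the summed HAS2 and HAS3 level in siCtrl. This share was 37.6% ± 2.74 in siQKI and 59.9% ± 0.801 in siRBFOX2. No library of a group reached the range of another, and the exact two-sided permutation test gave p = 0.1 for each of the 3 pairs, the smallest value that 3 against 3 libraries allow. HAS3 was therefore the more abundant synthase transcript in siCtrl and siRBFOX2, and HAS2 in siQKI. The summed level per kilobase, in rescaled counts (parts per 1000000 of the library), was 4.79 ± 0.408 in siCtrl, 2.13 ± 0.117 in siQKI and 3.25 ± 0.200 in siRBFOX2. These shares rest on 1 transcript length per gene, and the isoform in use was not measured.

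HYAL2 had the highest counts of the hyaluronan-cleaving genes in PANC-1. HYAL2, a hyaluronidase anchored at the cell surface, had 17028, 18078 and 18071 normalized counts in siCtrl, 19126, 19321 and 20117 in siQKI, and 18647, 16348 and 19328 in siRBFOX2. The siQKI libraries lay above all siCtrl libraries, but the log2 difference of 0.14 (95% CI 0.02 to 0.26) had an adjusted p of 0.0739 and missed the threshold. It passed in the fit of only these groups (adjusted p = 0.0229), with upper-quartile rescaling (adjusted p = 0.0110) and without siRBFOX2 replicate 2 (adjusted p = 0.0196). In siRBFOX2 the difference was 0.03 (95% CI −0.09 to 0.15).

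The joined HYAL3 and NAA80 gene had 2070, 1901 and 1765 normalized counts in siCtrl, 2034, 1825 and 1565 in siQKI, and 1699, 1802 and 1569 in siRBFOX2. These ranges overlapped, and the log2 differences from siCtrl of −0.09 (95% CI −0.31 to 0.14) and −0.18 (95% CI −0.40 to 0.05) did not pass the threshold.

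HYAL1, the lysosomal enzyme, and CEMIP had low values in PANC-1. HYAL1 had 46.9, 47.0 and 160 normalized counts in siCtrl, 75.3, 112 and 110 in siQKI, and 36.8, 31.0 and 75.03 in siRBFOX2. CEMIP had 148, 73.0 and 84.5 in siCtrl, 90.1, 80.2 and 71.3 in siQKI, and 73.6, 57.1 and 16.7 in siRBFOX2. For both genes 1 siCtrl library stood above the other siCtrl libraries, replicate 3 for HYAL1 and replicate 1 for CEMIP. Neither gene passed the threshold in any comparison, and the wide intervals leave changes of more than 2-fold possible. For CEMIP in siRBFOX2 the log2 difference was −1.21 (95% CI −2.35 to −0.07, adjusted p = 0.117), and without siRBFOX2 replicate 3 it was −0.58 (adjusted p = 0.417).

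**Figure D2:**
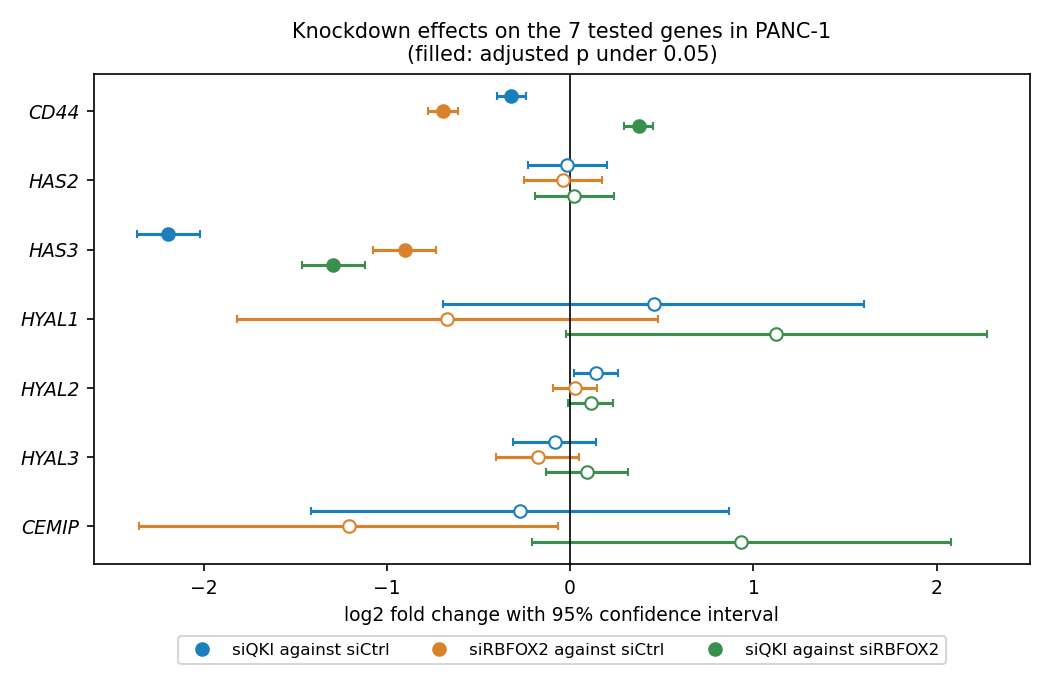
Log2 fold changes (points) with 95% confidence intervals (bars) of the 7 tested genes in the 3 comparisons of PANC-1 groups, with filled points for an adjusted p under 0.05. Only the CD44 and HAS3 points are filled, and the intervals of HYAL1 and CEMIP are the widest.

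In HPAF-II, the makeup of these genes was different, with far less CD44 and far more CEMIP than in PANC-1. The tables of the lines were normalized apart, so the values of each library were scaled to sum to 1000000 (rescaled counts) and no test was made. A group mean of 10 or more normalized counts was reached by 7 genes in 1 line or the other. Of these, 2 were at least 2-fold higher in HPAF-II siCtrl than in the PANC-1 controls and 4 were at least 2-fold lower. Over 24673 such genes, 26.1% were higher and 27.1% lower by this measure. The lines differ in genotype and normalization besides subtype, and these cannot be told apart.

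CD44 had rescaled counts of 2682, 2581 and 2629 in PANC-1 and 361, 342 and 266 in HPAF-II. The lines did not overlap, and the PANC-1 mean was 8.15-fold that of HPAF-II (log2 ratio −3.04). Without HPAF-II replicate 1 the log2 ratio was −3.13. CD44 still had high counts in HPAF-II, at rank 444, 481 and 619 of the libraries by counts not corrected for length.

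CEMIP, at chr15:80779370-80951771, showed the opposite pattern and the largest difference of the 8 genes. Its rescaled counts were 0.438, 0.210 and 0.245 in PANC-1 and 299, 281 and 245 in HPAF-II. This is a log2 ratio of 9.87, which ranked 110 from the highest of the 24673 genes, and it was 9.81 without HPAF-II replicate 1. The ratio is sensitive to the low PANC-1 level and was 7.73 with a pseudocount of 1 in place of 0.01. CEMIP overlaps MESD, a gene on the other strand, by 5483 bases, and MESD had mean rescaled counts of 60.3 in PANC-1 and 78.3 in HPAF-II, so its levels differed far less than those of CEMIP. A gene without a symbol also overlaps CEMIP, by 3618 bases. That gene was likewise higher in HPAF-II, with mean rescaled counts of 0.549 against 0.0201 in PANC-1 siCtrl.

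HYAL1 was also higher in HPAF-II, with rescaled counts of 5.67, 9.20 and 8.71 against 0.138, 0.135 and 0.463 in PANC-1 (log2 ratio 5.15, or 5.37 without HPAF-II replicate 1). This ratio also rests on a low PANC-1 level and was 2.82 with a pseudocount of 1. In contrast, HYAL2 was lower, with 10.9, 13.3 and 25.3 against 50.3, 51.9 and 52.3 (log2 ratio −1.74). The HYAL2 ratio was −1.49 without HPAF-II replicate 1 and −2.09 without replicate 3, which was the highest. The joined HYAL3 and NAA80 gene had 3.56, 3.22 and 5.43 rescaled counts in HPAF-II and 6.11, 5.46 and 5.11 in PANC-1, and the lines overlapped (log2 ratio −0.48, or −0.41 without HPAF-II replicate 1).

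Both detected synthases were lower in HPAF-II. HAS2 had 1.05, 0.846 and 0.865 rescaled counts against 5.885, 4.66 and 5.68 in PANC-1 (log2 ratio −2.54, or −2.64 without HPAF-II replicate 1). With a pseudocount of 1 the HAS2 ratio was −1.74. HAS3 had 3.14, 4.22 and 6.99 against 15.6, 13.6 and 15.1 (log2 ratio −1.70). Without HPAF-II replicate 1 the HAS3 ratio was −1.44, and without replicate 3, the highest, it was −2.02. HAS1 was listed at 0 in HPAF-II replicates 1 and 2 and at 5.51 normalized counts in replicate 3. HAS2-AS1 was also lower in HPAF-II, with 0.278, 0.0199 and 0.171 rescaled counts against 1.65, 1.52 and 1.45 in PANC-1 (log2 ratio −3.74). This ratio rests on a low and scattered HPAF-II level, and the PANC-1 mean was 9.83-fold that of HPAF-II.

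**Figure D3:**
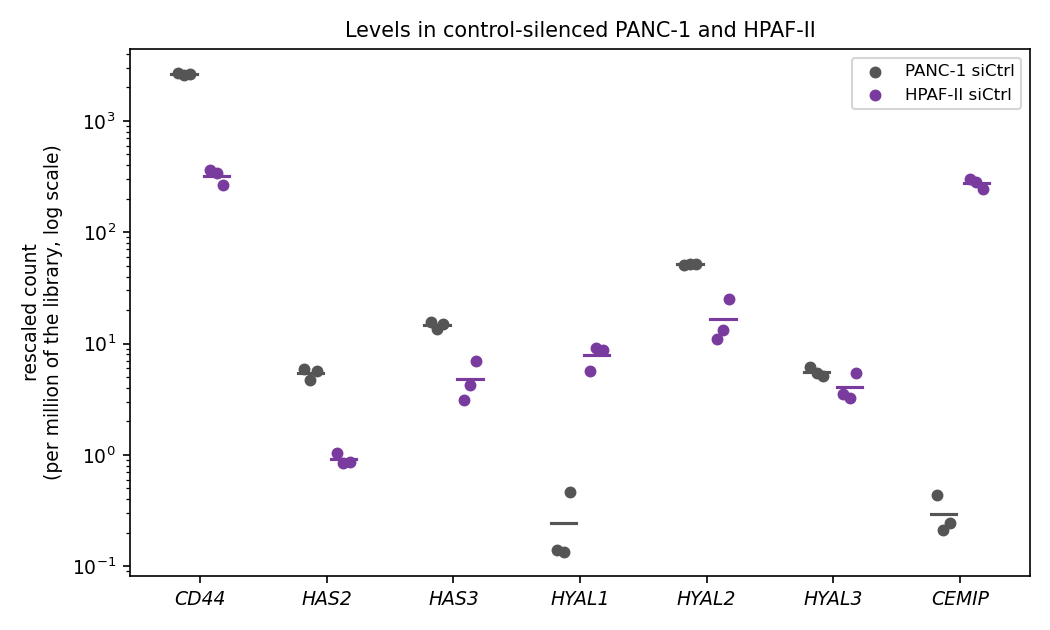
Rescaled counts, scaled to 1000000 per library (log axis), of 7 genes in control-silenced PANC-1 and HPAF-II, with 1 point per library (n = 3 per line) and a line at the mean. CD44, HAS2, HAS3 and HYAL2 lie lower in HPAF-II, CEMIP and HYAL1 lie higher, and the lines overlap for HYAL3, drawn from the gene joined with NAA80.

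Levels of different genes were compared per kilobase of the longest principal transcript. In PANC-1 siCtrl the order of mean rescaled counts per kilobase was CD44 (459), HYAL2 (12.7), HAS3 (3.50), HYAL3 with NAA80 (2.86), HAS2 (1.29), HYAL1 (0.0976) and CEMIP (0.0404). The library ranges of neighbours in this order overlapped only for HYAL1 and CEMIP. In HPAF-II the order was CD44 (56.3), CEMIP (37.4), HYAL2 (4.08), HYAL1 (3.12), HYAL3 with NAA80 (2.10), HAS3 (1.13) and HAS2 (0.219). There the ranges of HYAL1, HYAL2 and HYAL3 overlapped each other, and the other neighbours were apart or met at their ends.

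The genes whose pattern over the 12 libraries was most like that of CD44 were sought by the root mean square difference of centred log2 rescaled counts. Among 17877 genes, the closest were CD109 (0.119), PFN2 (0.156), TANC2 (0.184), DUSP1 (0.185) and PTHLH (0.189). Mean rescaled counts of CD109, a membrane protein, were 120.5, 107 and 92.8 in PANC-1 siCtrl, siQKI and siRBFOX2 and 15.7 in HPAF-II. The log2 ratios of these 5 genes between the lines lay between −3.02 and −2.81, against −3.04 for CD44. Because the genes were chosen over these same 12 libraries, knockdowns included, closeness to CD44 in this ratio or in the knockdown changes is no separate result. In siQKI, TANC2 did not pass the threshold (log2 fold change −0.09, adjusted p = 0.277, limma), while CD109, PFN2, DUSP1 and PTHLH fell.

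Other genes of hyaluronan metabolism and CD44 function were described with 6 lists of 47 genes, of which 37 could be tested. In siQKI 8 of these rose, 13 fell and 16 did not pass the threshold, with a median log2 fold change of −0.08 against 0.03 over all genes, of which 32.97% were called in either direction. In siRBFOX2 9 rose, 9 fell and 19 did not pass, with a median of −0.0002 against 0.01 over all genes, of which 26.55% were called. Between the knockdowns, 4 were higher in siQKI and 10 lower, where 21.49% of all genes were called. The shares of all genes, here and for each list below, cover genes of every level, and genes of like level were not compared. The lists were chosen with earlier results of these data known.

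Enzymes that supply the UDP-sugar precursors moved in both directions. UAP1, which makes UDP-N-acetylglucosamine, fell in siQKI (log2 fold change −0.49, adjusted p = 2.64e-06), as did UGP2 (−0.30) and PGM3 (−0.27), while UGDH, which makes UDP-glucuronic acid, rose. In siRBFOX2, GFPT1, the entry enzyme of the hexosamine pathway, fell (−0.60, adjusted p = 1.33e-06), and its relative GFPT2 rose (0.61, adjusted p = 0.00724) together with UGDH (0.30). In all, 1 of 7 rose and 3 fell in siQKI, and 2 rose and 3 fell in siRBFOX2. Of all genes, 14.9% rose and 18.1% fell in siQKI, and 12% rose and 14.5% fell in siRBFOX2. GFPT1 differed between the knockdowns (log2 difference 0.68, adjusted p = 4.78e-07).

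Of 4 tested genes for other steps of hyaluronan degradation, 1 rose and 2 fell in siQKI, and 1 rose and 1 fell in siRBFOX2. Across all genes, 14.9% rose and 18.1% fell in siQKI, and 12% rose and 14.5% fell in siRBFOX2. The gene that rose in each knockdown was CEMIP2, a transmembrane relative of CEMIP. Its normalized counts were 3322, 2826 and 2786 in siCtrl, 5446, 5479 and 5692 in siQKI, and 5413, 5362 and 5323 in siRBFOX2. Both knockdowns lay above every siCtrl library, with log2 fold changes of 0.90 (SE 0.07, adjusted p = 1.39e-07) and 0.85 (SE 0.07, adjusted p = 5.17e-07), and the difference between them was 0.05 (95% CI −0.10 to 0.19). Between the lines, CEMIP2 had mean rescaled counts of 95.4 in HPAF-II and 8.66 in PANC-1 siCtrl.

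Of 5 other hyaluronan receptors tested, 0 rose and 3 fell in siQKI, and 0 rose and 1 fell in siRBFOX2. Among all genes, 14.9% rose and 18.1% fell in siQKI, and 12% rose and 14.5% fell in siRBFOX2. LAYN, a lectin-like receptor, fell in siQKI (−0.49, adjusted p = 0.00105), and HMMR, which also acts at the mitotic spindle, fell in both (−0.16 and −0.23). STAB1, with few counts, had an adjusted p of 0.0448 in siQKI that was lost under 8 of 17 alternatives. The hyaluronan-binding matrix list had 10 tested genes. Beside the same shares of all genes, 1 rose and 2 fell in siQKI, and 2 rose and 1 fell in siRBFOX2. HAPLN3, a link protein, rose in both (0.98, adjusted p = 1.4e-08, and 0.74, adjusted p = 5.11e-07), and PTX3, a pentraxin of the hyaluronan matrix, fell in both (−1.19, adjusted p = 2.92e-05, and −0.93, adjusted p = 4.01e-04). BCAN fell in siQKI (−2.08, adjusted p = 0.00974) at low counts.

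Of 9 genes that bind CD44 or its tail or cleave its ectodomain, 7 passed the threshold in siQKI and 6 in siRBFOX2. In siQKI 4 rose and 3 fell, and in siRBFOX2 3 rose and 3 fell. Of all genes, 32.97% and 26.55% were called, but these shares cover genes of every level, and genes of like level were not compared. NF2, the gene of merlin, which binds the CD44 tail, had 52626, 49557 and 55283 normalized counts in siCtrl and 19334, 20124 and 18676 in siQKI. This was a fall to 36.9% (log2 fold change −1.44, SE 0.05, adjusted p = 5.32e-11), while the fall in siRBFOX2 was to 86.3% (adjusted p = 0.00593). The ezrin gene EZR fell in both (−0.55 and −0.29), and the related MSN, which encodes moesin, rose in both (0.53 and 0.69). The sheddase genes ADAM17 (0.37 and 0.56) and MMP14 (0.45 and 0.60) rose in both knockdowns.

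ESRP1 and ESRP2 encode epithelial splicing regulators that act on the CD44 variable exons. ESRP2 rose in siQKI (0.44, adjusted p = 4.2e-05) and in siRBFOX2 (0.23, adjusted p = 0.00884), and was higher in siQKI (0.20, adjusted p = 0.0229), a difference whose call was lost under 4 of 17 alternatives. ESRP1 was scarce in PANC-1, with 122.5 to 253 normalized counts in siCtrl, and its log2 fold changes of 0.62 and 0.43 did not pass the threshold. In HPAF-II the mean rescaled count of ESRP1 was 165 against 0.537 in PANC-1. Exon usage of CD44 was not measured by these gene totals.

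**Figure D4:**
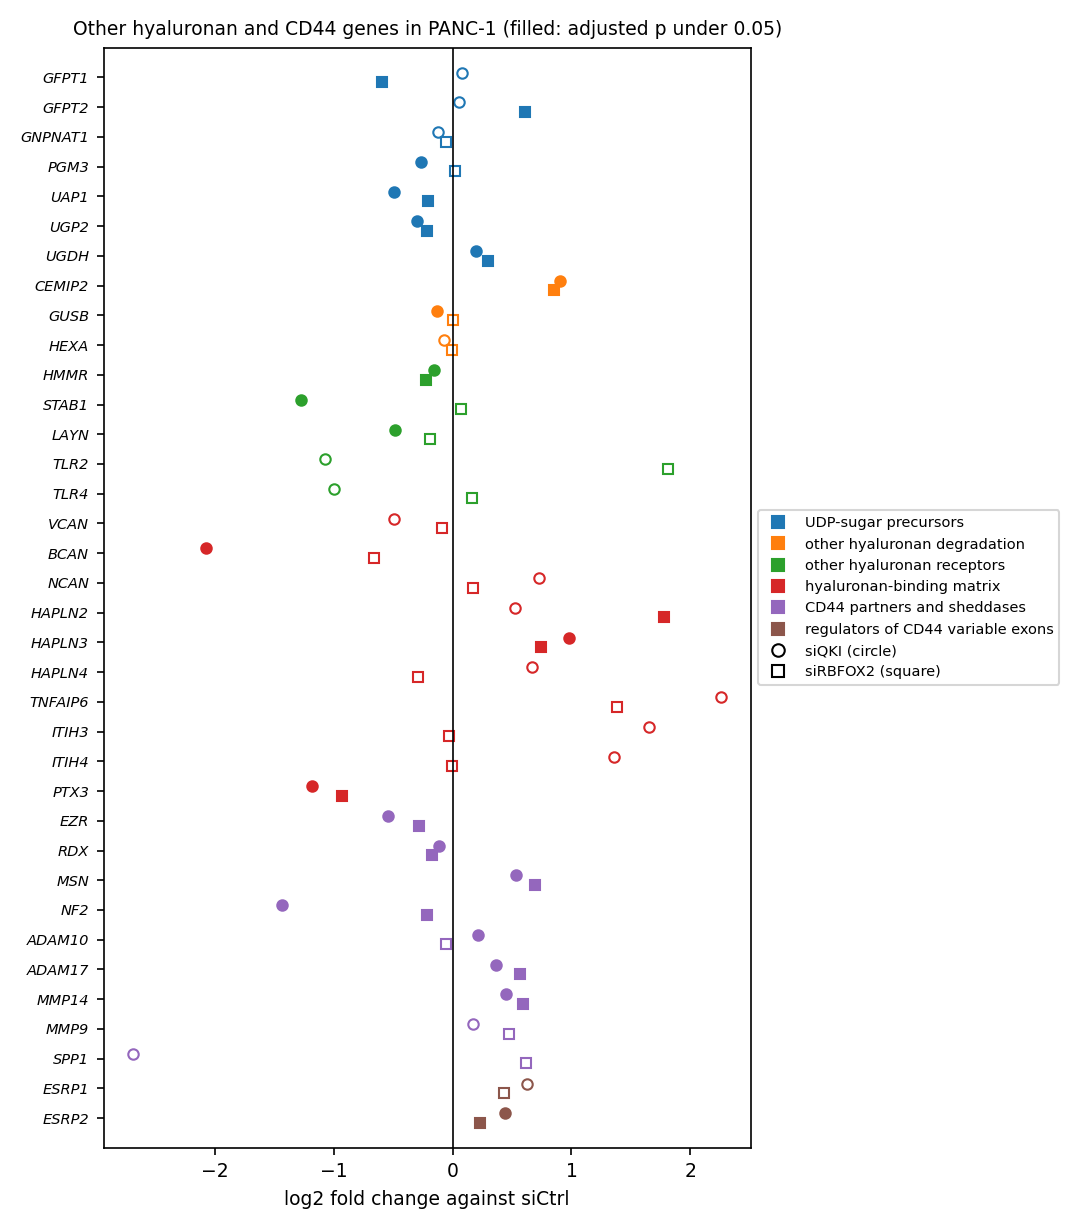
Log2 fold changes against siCtrl of tested genes of the 6 lists in PANC-1, with circles for siQKI, squares for siRBFOX2, colour for the list and filled symbols for an adjusted p under 0.05. CEMIP2, HAPLN3 and MSN lie right of 0 and PTX3, EZR and NF2 left of 0 in both knockdowns.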

How the data were processed

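The authors sequenced polyA RNA in paired-end format and, per the labels, aligned reads to hg38 with STAR 2.7.5a. The deposited signal values are gene counts of the FAST DB annotation after division by DESeq2 size factors, done by the authors in 1 table for the 9 PANC-1 and 1 for the 3 HPAF-II libraries. Every value was a whole multiple of a library step, and libraries summed to 292248837 to 376192091 steps (PANC-1) or 226697015 to 309720537 steps (HPAF-II). Of the values of up to 30 steps, 82.1% to 84.8% per library divided by 3, so steps are not fragments and precision was taken from replicates.

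Libraries were grouped by their labels. The 9 PANC-1 libraries were fitted with limma 3.58.1 in R 4.3.3 (mean-variance trend, no block) on log2(normalized count + 1), for genes with a mean of at least 10, with Benjamini-Hochberg adjustment and a threshold of 0.05. The lines were compared on values rescaled to 1000000, with a pseudocount of 0.01. The pseudocount shrinks fold changes of low genes. Because logs are averaged, such changes can still be larger than those of the means. CEMIP in siRBFOX2 is an example, with a log2 fold change of −1.21 and a mean at 48.2% of siCtrl. The fit was tested on simulated data. Python 3.11.15 with pandas 2.3.3, scipy 1.17.1 and matplotlib 3.10.9 was used for the rest. The genes and lists were chosen with earlier results of these data known. Named genes were the 8 genes, the silenced genes, the overlapping HAS2-AS1, CHTF8 and MESD, up to 3 called genes with the largest change per list and comparison, and the 5 genes most like CD44. SNORD164 and a gene without a symbol also overlap CD44, and MIR549A and a gene without a symbol also overlap CEMIP. Others are named as members of a list, and 1 list gene is counted but not reported here. Alternatives covered pseudocounts, filters, rescaling, the groups fitted, a replicate block, the trend and each library left out.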

Additional observations from a re-analysis of the deposited data

How the results depend on the processing

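CD44 and HAS3 kept their direction and their call in the 3 PANC-1 comparisons under all 17 alternatives. In siQKI, CD44 ranged from −0.33 to −0.26 and HAS3 from −2.25 to −2.13. The number of the 7 tested genes past the threshold stayed at 2 except in siQKI, where HYAL2 made it 3 under the 3 settings named above. The fit with a replicate block changed no call of the 8 genes, with 2 of them past the threshold in each comparison, and gave 7336, 5891 and 4758 genes in all against 7432, 5985 and 4844 without it. Deviations from the group means correlated at r −0.0325 to 0.0235 for same-numbered libraries and at −0.0333 to 0.0384 for differently numbered ones. Every tested gene weighs the same in this check, low ones included, so it cannot decide whether the numbers pair libraries. No paired analysis was possible for the lines because they share no culture.

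With upper-quartile rescaling, the share of called genes that were higher in siQKI moved from 45.2% to 58.02%, and the median over all genes from 0.03 to 0.09. The pathway genes past the threshold between siQKI and siRBFOX2 dropped from 14 to 8 with no mean-variance trend and ranged from 9 to 14 with each library left out (9 without siQKI replicate 1). Uncalled values near 0 changed sign. HAS2 in siQKI was 0.047 with upper-quartile rescaling and ranged from −0.11 to 0.052 with libraries left out. The other such ranges were −0.17 to 0.014 for HYAL3 and −0.48 to 0.030 for CEMIP in siQKI, −0.13 to 0.016 for HAS2 and −0.021 to 0.10 for HYAL2 in siRBFOX2, and −0.043 to 0.090 for HAS2 between the knockdowns. The cause was not tested. The HAPLN2 rise in siRBFOX2 (1.78, adjusted p = 0.0496) was lost under 10 of 16 alternatives, and the GUSB fall in siQKI (−0.13, adjusted p = 0.0338) under 8 of 17. In siQKI, HMMR lost its call under 3 of 17 (highest adjusted p 0.147) and BCAN under 1. Between the knockdowns, the differences of GUSB and STAB1 were each lost under 13 of 17, that of LAYN under 10 and that of ESRP2 under 4 (highest adjusted p 0.106). The ESRP2 rise in siRBFOX2 was lost under 1. Between the lines, 6 of the 7 genes stayed at least 2-fold apart in all 10 alternatives. The median log2 ratio over all genes there was 0.02, and it was −0.27 for the deposited values without rescaling and −0.10 with median-of-ratios factors, where CD44 was −3.32 and −3.16. A count test with edgeR was not run, since whole reads could not be recovered in every library.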

Other observations

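A pair of noncoding genes named for CD44 was looked up after the values were seen. GAPLINC, described in the files as a regulator of CD44, had 302, 387 and 323 normalized counts in PANC-1 siCtrl, 99.2, 191 and 97.5 in siQKI, and 94.6, 148 and 222 in siRBFOX2. It fell in both knockdowns (log2 fold change −1.44, adjusted p = 0.00441, and −1.19, adjusted p = 0.0185, limma), and it was listed at 0 in all 3 HPAF-II libraries. CD44-DT, the divergent transcript at the CD44 start, had 364, 338 and 435 normalized counts in siCtrl and log2 differences of 0.07 (95% CI −0.32 to 0.46) in siQKI and 0.16 (95% CI −0.23 to 0.56) in siRBFOX2. It did not pass the threshold. In HPAF-II, CD44-DT had 77.8, 17.2 and 63.3 normalized counts.

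CDH1, the epithelial cadherin of the marker list, and the mesenchymal markers were also singled out after their values were seen. CDH1 rose in both knockdowns while CD44 fell, but no other gene of its list rose. Of the 6 genes of that list, 1 rose and 1 fell in siQKI, and 1 rose and 3 fell in siRBFOX2. Of all genes, 32.97% and 26.55% were called. KRT18 fell in both (−0.20 and −0.35), and KRT8 and KRT19 fell in siRBFOX2 (−0.23 each). CDH1 had 995, 997 and 968 normalized counts in siCtrl, 3026, 2275 and 2528 in siQKI, and 1438, 1535 and 1322 in siRBFOX2. Its log2 fold changes were 1.39 (adjusted p = 1.54e-07, limma) and 0.53 (adjusted p = 0.00177). The mesenchymal markers VIM (−0.13, adjusted p = 0.0152) and ZEB1 (−0.28, adjusted p = 0.00249) fell in siQKI and did not pass the threshold in siRBFOX2, where CD44 was lowest.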
